A study of Mus musculus with 4 samples.

Results

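The nuclear receptors are transcription factors that are switched by small fat-soluble ligands. The genes described here are 28 of them other than Nr3c1, the gene of the glucocorticoid receptor, taken as every row of the deposited count table whose symbol is on a list of 28, and all 28 were found among its 23282 distinct features. They were measured in C2C12 myotubes, the fused and differentiated form of a mouse myoblast line that the labels give as female and as skeletal muscle. Both groups were kept without steroids beforehand and differed in a 2 h exposure, to vehicle or to dexamethasone (a synthetic glucocorticoid) at 1 µM. Each group had 2 libraries of chromatin-bound nuclear RNA, which is rich in transcripts still being made. The model is a single cell line, and nothing in the labels says whether the libraries of a group came from separate cultures, so p-values measure only the spread between these libraries, which may be technical.

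A nuclear receptor carries a DNA-binding domain with a pair of zinc fingers and a ligand-binding domain. Steroid receptors such as the glucocorticoid, mineralocorticoid and progesterone receptors bind DNA mainly as pairs of the same protein. The thyroid hormone, retinoic acid, vitamin D, liver X and peroxisome proliferator-activated receptors pair with a retinoid X receptor, and several orphan receptors bind DNA alone or have no settled ligand. In skeletal muscle, members of the family are known for setting fibre type, mitochondrial content and the choice between fat and glucose as fuel.

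The libraries held from 19631435 to 88596296 gene counts, with dexamethasone replicate 2 the deepest and vehicle replicate 1 the shallowest. Levels are given as scaled CPM, that is counts divided by the TMM-scaled library total and put on the usual CPM scale, and levels of different genes are compared per kb of merged exons. All 11 myotube markers examined were at 1 CPM or more in every library. Their summed level was 130000 and 47000 CPM in vehicle replicates 1 and 2 and 125000 and 45700 CPM in dexamethasone replicates 1 and 2. Most of this sum was Ttn, the gene of the giant muscle protein titin, at 118000 and 41100 CPM in vehicle and 113000 and 39900 CPM in dexamethasone. Each of the other markers was also higher in both replicate 1 libraries than in both replicate 2 libraries, by little for Tnnt3 and Ryr1, except Mymk, a gene of myoblast fusion, which had 176 and 173 CPM in vehicle and 208 and 208 CPM in dexamethasone. Of the 5 adipocyte markers 2 were at 0 counts in every library and the list summed to at most 0.211 CPM. The 3 markers of undifferentiated myoblasts summed to 46.1 and 46.8 CPM in vehicle against 27.0 and 27.1 CPM in dexamethasone, with Pax7, the satellite cell factor, at 32.0 and 39.0 against 17.9 and 22.9 CPM and Heyl at 12.2 and 6.67 against 6.74 and 2.74 CPM. Myf5, the third of them, went the other way within both replicate numbers, at 1.98 and 1.05 against 2.27 and 1.45 CPM. Of the 5 osteoblast markers only Runx2 reached 1 CPM in every library, with 370 and 486 CPM in vehicle and 259 and 355 CPM in dexamethasone. The part of these markers in the results below was not tested. In such bulk samples fewer cells of a type and less RNA per cell cannot be told apart.

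Of the 28 receptor genes, 25 had enough counts to be tested and 23 were at 1 CPM or more in every library. Per kb of merged exons the highest level in vehicle was that of Nr6a1, which encodes germ cell nuclear factor, an orphan repressor, at 30.1 ± 0.276 CPM per kb (SD, n = 2). Pparg followed at 25.7 ± 6.89 and Rxra at 20.7 ± 7.98 CPM per kb, and Nr6a1 and Pparg, like Pparg and Rxra, differed by less than the SD of Pparg. Nr2c1, Nr2c2, Esrrg and Rara lay between 12.5 and 13.3 CPM per kb and were not separated beyond the spread of Rara (SD 7.46). Rarg, Rora, Thra, Vdr and Esr1 lay between 7.95 and 9.55 CPM per kb with overlapping spreads. Nr3c2, Nr2f6, Esrra, Rxrb, Nr1h2, Rxrg and Nr2f1 followed, from 5.61 down to 1.35 CPM per kb, and Nr1h3, Nr2f2, Esrrb, Ppara, Rorb and Rarb lay under 1 CPM per kb, from 0.813 down to 0.171. After dexamethasone the order was led by Vdr at 29.5 ± 6.58 CPM per kb (SD, n = 2), which stood 11th in vehicle, and Nr6a1 followed at 26.2 ± 3.46 CPM per kb, within the SD of Vdr. The sources used here do not say whether counts cover exons alone or introns too. Taken per kb of the whole gene, only 6 of the 10 highest remained among the 10 highest, and the compact genes Nr1h2 and Rxrb moved to the top of the list.

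**Figure D1:**
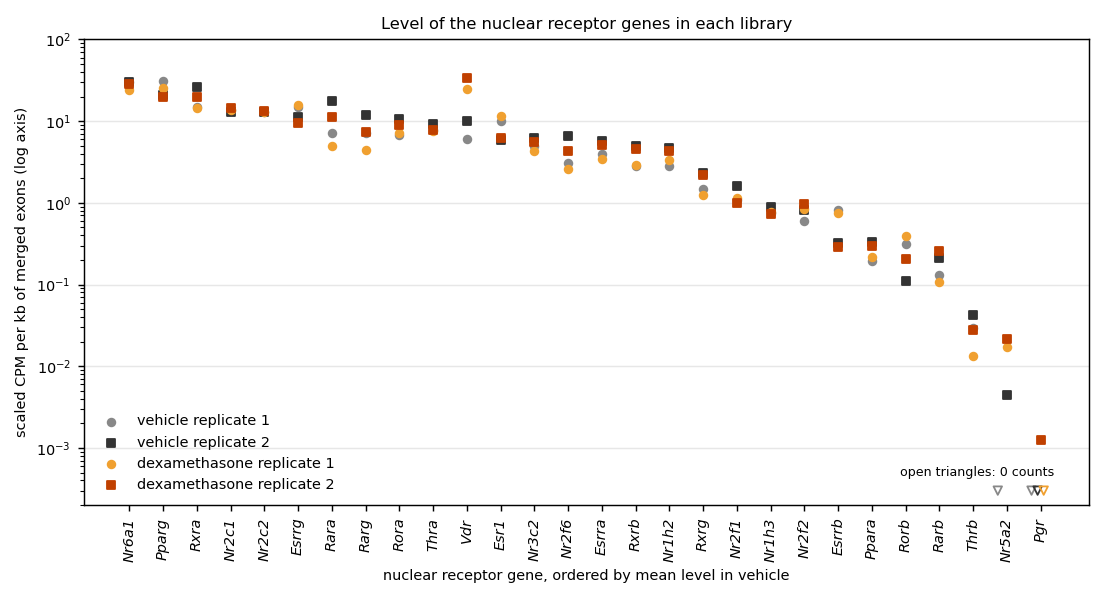
Scaled CPM per kb of merged exons (log axis) of the 28 nuclear receptor genes in each of the 4 libraries, ordered by the mean of the vehicle libraries, with open triangles for 0 counts. Levels fall from 30.1 CPM per kb in vehicle for Nr6a1 to a single count in all for Pgr, and the dexamethasone libraries of Vdr stand above its vehicle libraries.

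At the low end 3 receptors were too low to test. Pgr, the progesterone receptor, had 0, 0 and 0 counts in vehicle replicates 1 and 2 and dexamethasone replicate 1 and 1 count in dexamethasone replicate 2. A count of 0 allows up to 3 counts, or 0.161, 0.0791 and 0.1 CPM in those 3 libraries. Nr5a2, a liver and stem cell receptor of the Ftz-F1 type, had 0 and 1 counts in vehicle and 3 and 12 in dexamethasone, so its highest level was 0.129 CPM in dexamethasone replicate 2. Thrb, the second thyroid hormone receptor gene, had 4 and 12 counts in vehicle and 3 and 19 in dexamethasone, at most 0.316 CPM. Each of the 28 genes had at least 1 count, so none could lie in a run of genes all at 0 counts. Of the 20 neighbouring genes on the same strand, 13 had counts for Pgr, 20 for Nr5a2 and 19 for Thrb. Ppara, the fatty acid receptor of liver, and Rarb were tested but stood under 1 CPM in at least 1 library. Ppara had 0.751 and 1.26 CPM in vehicle and 0.834 and 1.14 CPM in dexamethasone. Rarb had 0.697 and 1.11 CPM in vehicle and 0.567 and 1.36 CPM in dexamethasone, and 34.1% of its exon bases are shared with Top2b on the other strand, which stood at 150 to 215 CPM. Whether the counting used strand is not given in the sources used here.

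Dexamethasone was then compared with vehicle, which asks which receptor genes differ within 2 h of glucocorticoid exposure. Vdr, the vitamin D receptor gene, was 3.68-fold higher and was the one tested member with a log2 ratio of at least 1 within both replicate numbers, as 1.73% of all genes had. The retinoic acid receptor genes Rara and Rarg were the 2 tested members with a log2 ratio of -0.5 or lower within both, as 2.9% of all genes had. Within both numbers 11 members were lower and 6 higher, against 33.9% and 34.2% of all genes. For 20 of the 25 tested members the log2 fold change lay within 0.35 of 0. By the quasi-likelihood test of edgeR, adjusted by Benjamini-Hochberg over 13285 genes, 0 of the 25 passed an adjusted p of 0.05, where 0.0376% of all genes passed, each of those higher. At an unadjusted p under 0.05, 1 member was higher (Vdr) and 0 were lower, against 4.09% and 1.69% of all genes. DESeq2's Wald test called 1 member higher, Vdr again, and 0 lower, against 1.78% and 0.399% of all genes. The likelihood ratio test of edgeR also called Vdr higher and 0 members lower, against 1.83% and 0.339%, and limma-voom called 0 members and 0 genes. The members' median log2 fold change was -0.12, with 8 above 0 and 17 below. Over all genes the median was -0.0016, with 6601 above 0 and 6684 below. The members' median was 0.058 without vehicle replicate 2, so its sign rests on that library.

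Vdr (ENSMUSG00000022479) encodes the receptor for calcitriol, the active form of vitamin D, and pairs with a retinoid X receptor. It had 639 and 2137 counts in vehicle and 4213 and 18030 in dexamethasone, or 34.3 and 56.3 against 141 and 193 scaled CPM. Both dexamethasone libraries lay far above both vehicle libraries, and the gap between the groups was wider than the spread within either. The means were 45.3 ± 15.6 and 167 ± 37.2 CPM (SD, n = 2 each). On the log2 scale this was a fold change of 1.88 (SE 0.311). The ratio was 4.1-fold between the replicate 1 libraries and 3.43-fold between the replicate 2 libraries, and by log2 fold change Vdr stood 92nd from the top of the 13285 genes tested. The unadjusted p was 0.00247 and the edgeR quasi-likelihood adjusted p 0.212. DESeq2's Wald test gave an adjusted p of 1.69e-06 and edgeR's likelihood ratio test 1.25e-05. Leaving out vehicle replicate 2, the edgeR quasi-likelihood adjusted p was 0.0133 at a log2 fold change of 2.29, and leaving out any other library it was 0.0918 to 0.229.

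The start regions of Vdr, Rara and Rarg are shown because these were the tested members whose log2 ratios within both replicate numbers passed the limits of 1 or -0.5 given above. Each is the 250 bases before the start site that lies farthest upstream in RefSeq (build GRCm38.p6), written 5′ to 3′ on the gene's own strand, with capitals for the GC box GGGCGG and the receptor element AGGTCA on either strand. They lie at chr15:97908297-97908546 (minus strand) for Vdr, chr11:98937446-98937695 (plus strand) for Rara and chr15:102257523-102257772 (minus strand) for Rarg.
Vdr: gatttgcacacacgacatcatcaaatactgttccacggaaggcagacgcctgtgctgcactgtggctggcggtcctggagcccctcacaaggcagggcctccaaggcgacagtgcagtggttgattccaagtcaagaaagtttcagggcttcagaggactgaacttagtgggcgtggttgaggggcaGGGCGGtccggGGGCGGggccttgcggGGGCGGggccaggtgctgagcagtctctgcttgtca
Rara: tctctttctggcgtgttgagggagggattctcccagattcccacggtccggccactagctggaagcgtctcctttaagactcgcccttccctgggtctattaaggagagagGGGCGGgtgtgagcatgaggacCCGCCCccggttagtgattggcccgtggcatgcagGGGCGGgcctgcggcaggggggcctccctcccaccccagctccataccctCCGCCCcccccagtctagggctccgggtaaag
Rarg: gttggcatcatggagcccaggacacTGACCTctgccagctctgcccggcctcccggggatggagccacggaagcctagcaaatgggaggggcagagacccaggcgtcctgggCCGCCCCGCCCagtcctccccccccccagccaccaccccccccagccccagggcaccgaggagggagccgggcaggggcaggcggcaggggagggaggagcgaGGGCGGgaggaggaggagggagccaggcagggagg
The Vdr window held 3 GC boxes, the sequence bound by Sp1, which begin 63, 52 and 36 bases before the start site. The Rara window held 4 GC boxes, and that of Rarg held 3, of which those 138 and 133 bases before the start share a base. The Rarg window also held AGGTCA in reverse 225 bases before the start. RefSeq gives 4 start sites for Rara and 2 for Rarg, and their windows differed. From upstream to downstream the Rara windows held 4, 4, 0 and 1 GC boxes. The second of these, at chr11:98937468-98937717, overlaps most of the window shown, and its 4 boxes are the same ones. The other Rarg window held 0 GC boxes and 0 AGGTCA. The 30 bases after the start site were found in an annotated GENCODE transcript for Vdr and for that other Rarg window. They were not found for the Rara and Rarg windows shown. RefSeq start regions matched 27 of the 28 members, 47 in all since many have several. Overlapping regions of the same gene were each counted. The GC box was found in 21 of these 47 (44.7%), against 32.7% of all 32851 start regions of that length. AGGTCA, the element bound by single non-steroid receptors, was found in 8 of 47 (17.0%) against 14.0% of all. The glucocorticoid palindrome, AGAACA and its reverse complement with 3 bases between them, was in 0 of the 47 and in 0.00913% of all. Its core ACANNNTGT was in 0 of the 47 and 5.84% of all, and AGAACA by itself was in 4 of the 47 (8.51%, in Thrb, Esrrb and Nr5a2) against 16.1% of all. Both strands were searched. A match is a match of letters only, and more distant sequence was not searched.

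The retinoic acid receptors, which bind all-trans retinoic acid, had Rara (ENSMUSG00000037992) at 31.5 and 77.6 scaled CPM in vehicle and 21.4 and 49.0 CPM in dexamethasone. The groups overlapped because both replicate 2 libraries were more than 2-fold above the replicate 1 library of their group. Within a replicate number the vehicle library was 1.47-fold and 1.58-fold above the dexamethasone library. The log2 fold change was -0.63 (SE 0.589, edgeR adjusted p 1.0), and it turned to 0.17 when vehicle replicate 2 was left out. Rarg (ENSMUSG00000001288) showed the same layout, at 30.8 and 50.5 CPM in vehicle and 19 and 31.4 CPM in dexamethasone. Its vehicle libraries were 1.62-fold and 1.61-fold above the dexamethasone libraries of the same number. Its log2 fold change of -0.69 (SE 0.36, edgeR adjusted p 1.0) was the lowest of the members. It was -0.28 without vehicle replicate 2, -0.37 without dexamethasone replicate 1, -1.0 without vehicle replicate 1 and -1.1 without dexamethasone replicate 2.

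**Figure D2:**
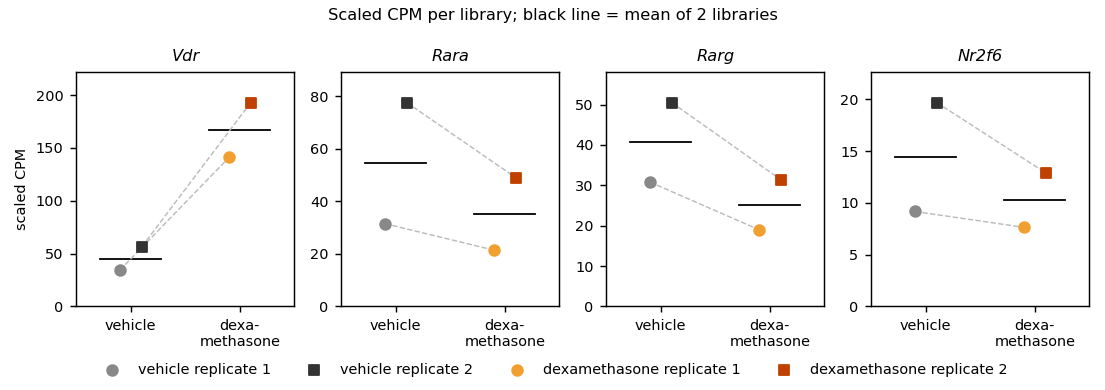
Scaled CPM of Vdr, Rara, Rarg and Nr2f6 in each library, with the mean of each group as a black line, dashed lines joining libraries of the same replicate number, and each axis starting at 0. Vdr is at 34.3 and 56.3 CPM in vehicle and 141 and 193 CPM in dexamethasone without overlap, while in the other 3 genes the groups overlap and each dexamethasone library lies below the vehicle library of its number.

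The retinoid X receptors are the shared partners of the receptors above. Rxra had 82.5 and 144 CPM in vehicle and 78.2 and 107 CPM in dexamethasone, with a log2 fold change of -0.29 (SE 0.324). Rxrb had 11.3 and 19.6 against 11.6 and 18.2 CPM, and Rxrg 3.38 and 5.27 against 2.84 and 4.99 CPM. All 3 overlapped between the groups and followed the replicate number. Per kb of exons Rxra stood well above Rxrb and Rxrg in vehicle, at 20.7 ± 7.98 against 3.9 ± 1.48 and 1.88 ± 0.582 CPM per kb (SD, n = 2 each). Per kb of whole gene the order of the first pair turned, with Rxrb at 2.35 and Rxra at 1.31 CPM per kb.

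Among the other partners of the retinoid X receptors, Thra, the thyroid hormone receptor gene of muscle and heart, had 36.1 and 42.5 CPM in vehicle and 35.2 and 36.3 CPM in dexamethasone, a log2 fold change of -0.14 (SE 0.15). Of its exon bases 5.7% are shared with Nr1d1 on the other strand, which had 31.5 and 18.2 CPM in vehicle and 25.3 and 14.1 CPM in dexamethasone. Pparg, best known as the driver of fat cell formation, had 90.4 and 61.6 CPM in vehicle and 75.3 and 58.8 CPM in dexamethasone (log2 fold change -0.18, SE 0.246). In vehicle it ranked 2nd of the 28 per kb of exons but 14th per kb of whole gene, in cells whose adipocyte markers were at or near 0. The liver X receptors, which sense oxysterols, differed in level, with Nr1h2 at 12.5 ± 4.39 and Nr1h3 at 2.05 ± 0.238 CPM in vehicle (SD, n = 2 each), or 3.74 and 0.813 CPM per kb. The groups of each overlapped, and the fitted log2 differences, 0.031 (SE 0.31) for Nr1h2 and -0.12 (SE 0.288) for Nr1h3, were smaller than their SE. Scaling by library size only put Nr1h2 at -0.016.

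The orphan receptors included the steadiest members. Nr2c2, the testicular receptor TR4, had 192 and 193 CPM in vehicle and 194 and 200 CPM in dexamethasone, and Nr2c1, its relative TR2, had 62.2 and 60.4 against 62.3 and 66.5 CPM. In both genes the dexamethasone libraries lay above the vehicle libraries by a very small margin. The fitted log2 differences were 0.033 (SE 0.115) for Nr2c2 and 0.071 (SE 0.122) for Nr2c1, and scaling by library size only put Nr2c2 at -0.0045. Mrps25 on the other strand shares 30.7% of the exon bases of Nr2c2 and stood at 16.4 to 21.5 CPM. Nr6a1 had 327 and 323 CPM in vehicle and 258 and 310 CPM in dexamethasone, the one tested member whose dexamethasone libraries both lay below its vehicle libraries (log2 fold change -0.2, SE 0.147). The members without overlap between groups were thus 4 higher (Vdr, Nr2c1, Nr2c2 and Nr2f2) and 1 lower, of 25, against 15% and 12.9% of all genes.

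The COUP transcription factors act mostly as repressors. Nr2f2 had 5.2 and 7.04 CPM in vehicle and 7.27 and 8.23 CPM in dexamethasone, without overlap but with the nearest libraries close together (log2 fold change 0.34, SE 0.237). Nr2f1 had 5.47 and 8.25 against 5.77 and 5.09 CPM, and its direction differed between the replicate numbers. Nr2f6 had 9.17 and 19.7 CPM in vehicle and 7.64 and 12.9 CPM in dexamethasone, with a log2 fold change of -0.49 (SE 0.464) that became 0.18 without vehicle replicate 2. Ocel1 on the other strand shares 54.4% of the exon bases of Nr2f6 and stood at 1.4 to 2.04 CPM. Rora, a clock-linked receptor, had 89.3 and 139 CPM in vehicle and 93.5 and 117 CPM in dexamethasone, and Rorb, its relative of brain and retina, had 3.43 and 1.21 against 4.34 and 2.25 CPM. Rorb had the second highest log2 fold change of the members, 0.52, but with an SE of 0.632, and it was -0.071 without vehicle replicate 2 and -0.018 without dexamethasone replicate 1.

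**Figure D3:**
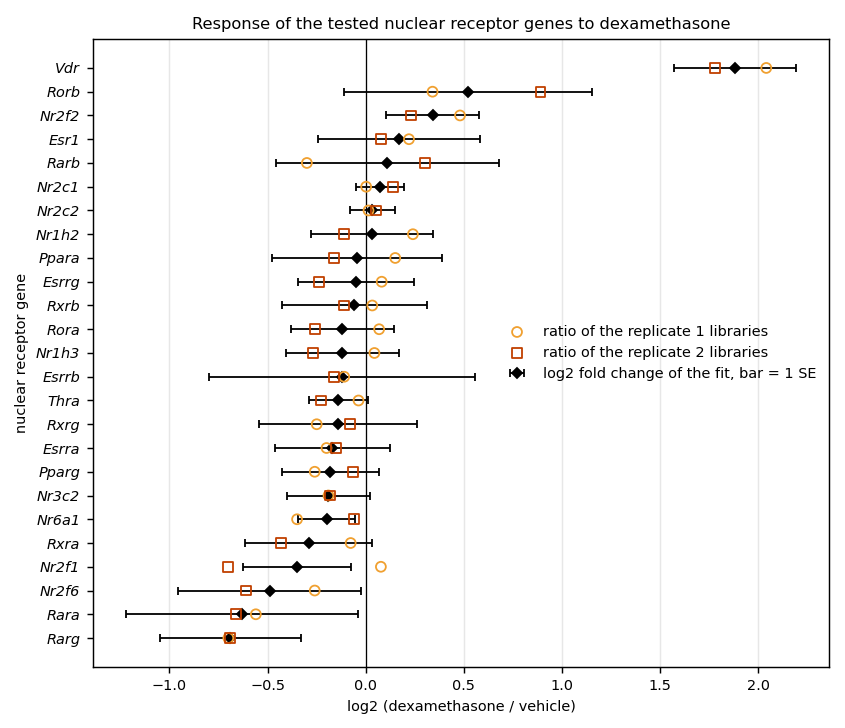
Log2 ratio of dexamethasone to vehicle for the 25 tested receptor genes, with the fitted value as a diamond, its SE as a bar, and the ratio within replicate number 1 as an open circle and within number 2 as an open square. Vdr stands apart at 1.88, Rara and Rarg lie at -0.63 and -0.69 with both ratios close together, and the bars of most other genes cross 0.

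The estrogen-related receptors bind DNA without a known natural hormone and are tied to mitochondrial genes. Esrrg had 91.5 and 69.2 CPM in vehicle and 96.8 and 58.6 CPM in dexamethasone, Esrra 17.3 and 25 against 15.1 and 22.5 CPM, and Esrrb 4.94 and 1.95 against 4.57 and 1.75 CPM. Their log2 fold changes were -0.049 (SE 0.296), -0.17 (SE 0.292) and -0.12 (SE 0.677), and in each the difference between the replicate numbers exceeded that between the groups. Esr1, estrogen receptor alpha, had 137 and 80.1 CPM in vehicle and 159 and 84.6 CPM in dexamethasone (log2 fold change 0.17, SE 0.411).

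Nr3c2 encodes the mineralocorticoid receptor, which can itself bind glucocorticoids. It had 31.9 and 40.7 CPM in vehicle and 27.9 and 36.0 CPM in dexamethasone, 1.14-fold and 1.13-fold lower within the replicate numbers (log2 fold change -0.19, SE 0.212, edgeR adjusted p 1.0). Nr3c1, for comparison, had 238 and 180 CPM in vehicle and 121 and 83.8 CPM in dexamethasone (log2 fold change -1.03, SE 0.251, edgeR adjusted p 0.43, and 0.017 by DESeq2).

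Many receptors differed between the replicate numbers. In 13 of the 25 tested members, among them Rara, Rarg, Rxra, Rxrb and Nr2f6, replicate 2 was the higher, where 32.1% of all genes behave so, and in 5 (Pparg, Rorb, Esr1, Esrrb and Esrrg) replicate 1 was the higher, where 31.8% do. Rara was 2.46-fold higher in replicate 2 than in replicate 1 in vehicle and 2.29-fold higher in dexamethasone. Esrrb was 2.53-fold and 2.62-fold higher in replicate 1, and Esr1 1.71-fold and 1.88-fold. The myotube markers other than Mymk were also higher in the replicate 1 libraries, and their part in the split of the receptors was not tested.

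**Figure D4:**
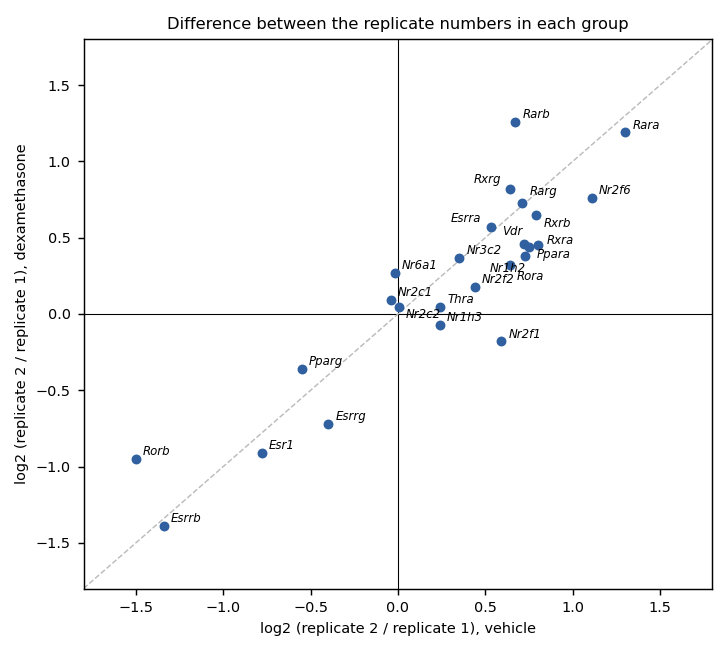
Log2 ratio of replicate 2 to replicate 1 in vehicle (x axis) and in dexamethasone (y axis) for the 25 tested receptor genes, with the dashed line marking equal ratios. Most genes lie near the line, among them Esrrb (2.53-fold and 2.62-fold lower in replicate 2) and Rara (2.46-fold and 2.29-fold higher). Farther from it lie Rorb (log2 ratios -1.5 in vehicle and -0.95 in dexamethasone), Rarb (0.67 and 1.26) and Nr2f1 (0.59 and -0.18).

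The genes around the receptors were taken from 9 lists of related receptors, ligand supply and targets. Of 21 other nuclear receptors 12 were tested and 0 passed in either direction, with 0 higher and 3 lower without overlap between groups, Nr3c1 among them, against 15% and 12.9% of all genes, and a median log2 fold change of -0.16. Of 19 retinoid supply genes 13 were tested and 0 passed, at a median of 0.047, with 1 higher and 2 lower without overlap (15% and 12.9% of all genes). These were the 3 Cyp26 enzymes, which break down retinoic acid. Cyp26b1 had 2.95 and 2.64 CPM in vehicle and 4.97 and 5.2 CPM in dexamethasone (0.87, SE 0.229, edgeR adjusted p 0.49). Cyp26a1 had 0.59 and 0.632 against 0.334 and 0.386 CPM (-0.75, SE 0.401), and Cyp26c1 had 2.15 and 2.0 against 1.57 and 1.8 CPM (-0.29, SE 0.29). Of 11 thyroid hormone supply genes 6 were tested and 0 passed (median -0.13), with 0 higher and 2 lower without overlap. Of 19 genes of steroid and vitamin D conversion 11 were tested and 0 passed (median -0.063), with 2 higher and 2 lower without overlap. The shares of all genes were again 15% and 12.9%. Among the higher was H6pd, which supplies the cofactor for cortisol regeneration, at 27.8 and 38.9 against 50.6 and 61.2 CPM (0.74, SE 0.222, edgeR adjusted p 0.608).

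Target genes of the receptors were examined next. Of 12 tested targets of retinoic acid, thyroid hormone and vitamin D receptors 0 passed (median 0.15), with 2 higher and 1 lower without overlap (15% and 12.9% of all genes). Klf9, a target shared by thyroid hormone and glucocorticoid receptors, had 22.8 and 20.2 CPM in vehicle against 69.5 and 62.5 CPM in dexamethasone (1.62, SE 0.15, edgeR adjusted p 0.117). Cyp24a1, the classical vitamin D receptor target, was singled out after its values were seen: it had 0 and 1 counts in vehicle and 0 and 0 in dexamethasone, beside the higher Vdr. Of 10 tested liver X receptor targets 0 passed (median -0.17), with 1 higher and 3 lower without overlap (15% and 12.9% of all genes). These 3 were Abcg1, a cholesterol exporter, at 3.0 and 7.54 against 0.867 and 2.31 CPM (-1.7, SE 0.67, edgeR adjusted p 0.896), Pltp and Mylip. Of 15 tested PPAR targets 1 passed as higher, Pdk4, a kinase that holds back glucose oxidation (3.11, SE 0.16, edgeR adjusted p 0.0429). Over all genes 0.0376% did so. None of the 15 passed as lower, and their median was 0.0036. Without overlap between groups 3 of them were higher and 4 lower (15% and 12.9% of all genes). Lpl, which releases fatty acids from lipoproteins, had 9.23 and 7.77 CPM in vehicle and 3.47 and 3.79 CPM in dexamethasone (-1.22, SE 0.214, edgeR adjusted p 0.23). Of 14 tested estrogen-related receptor targets and partners 0 passed (median 0.026), with 0 higher and 1 lower without overlap (15% and 12.9% of all genes). That 1 was Ppargc1b, a coactivator of these receptors, with 164 and 164 against 112 and 110 CPM (-0.57, SE 0.113, edgeR adjusted p 0.306). Of 9 tested targets of the mineralocorticoid, estrogen and progesterone receptors 1 passed as higher, Fkbp5 (5.32, SE 0.263, edgeR adjusted p 0.0429), against 0.0376% of all genes, and 0 passed as lower. Without overlap 5 of the 9 were higher and 2 lower (15% and 12.9% of all genes). The median of the 9 was 1.87, in a list whose members Fkbp5, Per1 and Tsc22d3 are also known glucocorticoid receptor targets and were known from earlier results to be higher in these libraries. Which receptor acted on any target gene of these lists, Pdk4 and the rest of the 9 included, was not tested.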

How the data were processed

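The authors deposited a single table of unnormalized counts, with a row per gene. Per the submitters' processing notes, the build was mm9 and the tools included TopHat2 2.0.13, SAMtools 1.1, HTSeq 0.6.1 and DESeq2 1.18.1, with no roles given, and the annotation and strand setting are not given in the sources used here. Per the labels' protocols, RNA was taken from the chromatin pellet of detergent-lysed nuclei; both a stranded total RNA kit and a stranded mRNA kit are named. Columns were matched to samples by group name and replicate number.

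Of 23333 rows, 51 repeating an earlier gene and its counts were dropped. Genes passing filterByExpr (minimum count 10, minimum total 15) numbered 13285. The test was that of edgeR 4.0.16 under R 4.3.3 (TMM, quasi-likelihood test, group only, residual degrees of freedom 2, prior 2.56), adjusted by Benjamini-Hochberg at 0.05. The scripts were tested on simulated data. Alternatives were other scalings, filters and tests (DESeq2 1.42.0, limma 3.58.1), a replicate block and leaving out each library. Exon lengths and overlaps came from GENCODE M21 (GRCm38), so no mm9 coordinates are given. Named genes are all members, Nr3c1, and from each list those past the threshold or among the 4 of largest change without overlap between groups. A gene that this rule names is not reported here. The members and lists were chosen with earlier results of these data known. Intervals and limits cover counting error only.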

Additional observations from a re-analysis of the deposited data

How the results depend on the processing

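The number of genes higher at an adjusted p of 0.05, 5 with edgeR's quasi-likelihood test, was 23 without the filter, 236 by DESeq2's Wald test, 243 by the likelihood ratio test and 0 by limma-voom, and it ranged from 4 without vehicle replicate 1 to 84 without vehicle replicate 2. The number lower, 0, was 53 by DESeq2 and 45 by the likelihood ratio test, and ranged from 0 without vehicle replicate 1 to 109 without vehicle replicate 2. Among the members 1 was higher by DESeq2 and 1 by the likelihood ratio test, against 0, and the number ranged from 0 to 1 with single libraries left out. That member was Vdr each time. The median of the mineralocorticoid, estrogen and progesterone receptor targets, 1.87, was 0.97 over genes with at least 10 counts in every library, where fewer genes are tested. Of the 10 highest members per kb of exons 6 were among the 10 highest per kb of whole gene.

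The replicate numbers are shared by the groups, but the labels do not say that they mark a batch or a pairing. A fit on 2 pairs leaves only 1 residual degree of freedom. Deviations from the group means correlated between the groups at 0.734 over genes. With the number as a replicate block, 913 genes were higher (6.87%) and 768 lower (5.78%), and 1 member was higher (Vdr) and 3 were lower (Rara, Rarg and Nr2f6), on 1 residual degree of freedom.

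Single members kept direction and side of the threshold in 217 of their values under settings with all libraries. They passed the threshold in 6 further values and turned direction in 2. Under library size only, Nr1h2 was -0.016 and Nr2c2 -0.0045. With single libraries left out, the log2 fold change crossed 0 in 17 members, with ranges of -1.35 to 0.17 for Rara, -0.68 to 0.58 for Rarb, -0.34 to 0.41 for Ppara, -0.42 to 0.12 for Pparg, -0.41 to 0.24 for Rora, -0.071 to 1.43 for Rorb, -0.28 to 0.46 for Nr1h2, -0.23 to 0.014 for Nr1h3, -0.93 to 0.18 for Nr2f6, -0.64 to 0.18 for Rxra, -0.43 to 0.41 for Rxrb, -0.62 to 0.23 for Rxrg, -0.35 to 0.61 for Esr1, -0.49 to 0.13 for Esrra, -0.96 to 0.67 for Esrrb, -0.45 to 0.27 for Esrrg and -0.38 to 0.012 for Nr3c2. A lone library was then assumed to vary like the other group. The causes of these differences were not tested.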
